A study of Mus musculus with 12 samples.

Results

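Endoglin and 9 genes of transforming growth factor beta (TGF-beta) signalling were followed in mouse CD4 T cells with and without the transcription factor Ikaros. The members are Eng, Tgfbr1, Tgfbr2, Tgfbr3, Tgfb1, Smad3, Smad7, Ski, Skil and Acvrl1. They were chosen by gene symbol with earlier results of these arrays known, among them the genotype difference of Eng. All 10 of 10 were measured, each by 1 probe set, among 23185 genes tested. Their values are therefore given as a description, with no p-value. For a member, "past the threshold" says only that its Benjamini-Hochberg adjusted p over all genes was under 0.05 in the limma fit. The cells were CD4+ T cells from mouse spleen, profiled on 12 whole-transcript arrays with 3 arrays in each of 4 groups. Cre- cells (Lck-Cre-;Ikzf+/+) carried intact Ikaros and Cre+ cells (Lck-Cre+;Ikzf-/-) were labelled as lacking it, with Cre under the Lck promoter of the T lineage. Each genotype was taken at baseline, 0 hours, or after activation for 24 hours with antibodies to CD3 (bound to the plate) and CD28 (soluble). No group had Cre with intact Ikaros and none was cultured without the antibodies, so effects of Cre itself and of culture cannot be told apart from those of genotype and activation. The labels give no age, and nothing in them says that replicates are different animals, so p-values measure only the spread between these samples, which may be technical.

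TGF-beta is a secreted cytokine that restrains T cell activation and directs regulatory and Th17 differentiation. The dimer of Tgfb1 products binds the type II receptor Tgfbr2, which recruits and phosphorylates the type I receptor kinase Tgfbr1; this in turn phosphorylates Smad2 and Smad3, which enter the nucleus with Smad4. Smad7 is the inhibitory Smad, itself induced by the pathway, and Ski and SnoN (the product of Skil) are nuclear corepressors that bind Smads. Endoglin and betaglycan (Tgfbr3) are co-receptors without kinase activity. Acvrl1 encodes ALK1, the type I receptor through which endoglin acts with bone morphogenetic proteins in endothelial cells.

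RefSeq promoter windows were matched for 6 of the 10 members, and the 250 bases before the gene start are shown for 3 of them. Eng is the member that differed most between genotypes and Tgfbr2 the receptor that differed most with activation among those with a window. Smad3 is the only one of those 6 whose window held the Ikaros core. Capitals mark matches to the Ikaros core GGGAA and to the Smad box CAGAC, searched on both strands, so that TTCCC and GTCTG are matches on the opposite strand; the motifs did not overlap.
Eng, GRCm38.p6 chr2:32646345-32646594, plus strand: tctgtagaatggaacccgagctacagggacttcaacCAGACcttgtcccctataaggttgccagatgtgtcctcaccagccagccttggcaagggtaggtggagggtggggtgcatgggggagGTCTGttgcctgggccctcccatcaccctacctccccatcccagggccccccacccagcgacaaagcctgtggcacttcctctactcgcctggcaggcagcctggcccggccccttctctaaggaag
Tgfbr2, GRCm38.p6 chr9:116175364-116175613, minus strand: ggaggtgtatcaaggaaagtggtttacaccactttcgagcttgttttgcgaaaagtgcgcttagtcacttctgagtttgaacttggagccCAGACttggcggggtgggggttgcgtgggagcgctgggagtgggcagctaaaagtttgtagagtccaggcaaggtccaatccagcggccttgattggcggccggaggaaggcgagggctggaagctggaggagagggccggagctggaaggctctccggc
Smad3, GRCm38.p6 chr9:63757995-63758244, minus strand: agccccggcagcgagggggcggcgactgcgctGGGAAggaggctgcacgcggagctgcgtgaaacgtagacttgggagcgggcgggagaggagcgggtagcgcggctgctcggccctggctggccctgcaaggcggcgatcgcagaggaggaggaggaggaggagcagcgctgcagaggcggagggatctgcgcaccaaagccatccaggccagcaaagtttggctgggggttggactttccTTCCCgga
Eng had 2 Smad boxes, 214 and 127 bases before the gene start, and no Ikaros core. Tgfbr2 had 1 Smad box, 160 bases before its start. Smad3 had 2 Ikaros cores, 218 and 8 bases before its start, and no Smad box. Of 32841 mouse promoter windows of this length, 56.2% held the Ikaros core and 42.2% the Smad box, so matches to such short motifs are common. They describe the letters of these windows only, and no factor's binding was measured.

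T cell genes were high on every array, with Cd4 at group means of 10.79 to 11.53 and a mean of 10.19 to 10.36 at baseline over 7 T cell markers measured. B cell markers were also present at baseline. The mean of 5 of them was 8.49 to 8.69 in Cre- and 8.28 to 8.43 in Cre+ cells, and 4.83 to 6.52 and 5.45 to 7.40 after activation. In these bulk samples, fewer cells of a type and less RNA per cell cannot be told apart. Baseline Ikzf1 was 10.53 ± 0.0073 (SD, n = 3) for Cre- and 10.36 ± 0.27 for Cre+ cells, and the activated levels were 10.11 ± 0.10 and 9.98 ± 0.13. Which exons were deleted is not stated in the labels, so this level did not check the genotype. Activated array 3 of both genotypes stood apart. Its T cell marker mean was 9.68 in Cre- and 9.66 in Cre+ cells against 9.97 to 10.08 on the other 4 activated arrays, and its B cell marker mean was the highest of its group. Values without both of these arrays are given beside the results they move, a setting chosen with earlier results known.

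**Figure D1:**
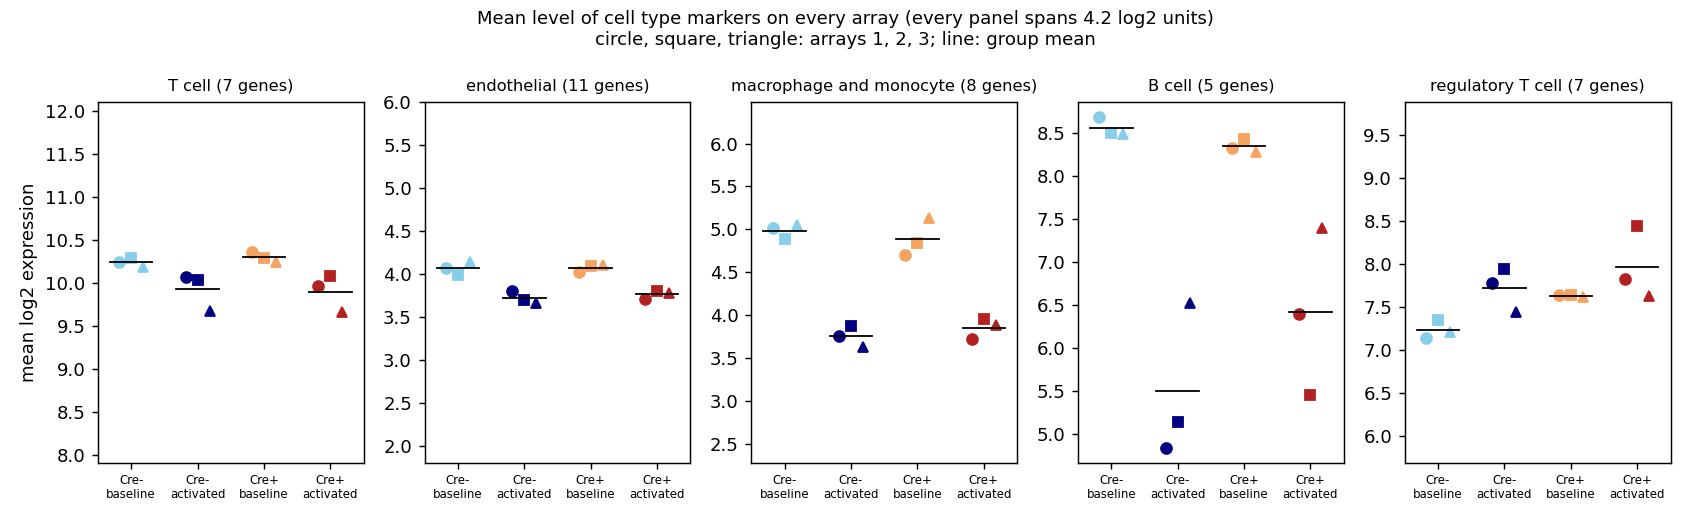
Mean log2 expression (vertical axis, 4.2 units in every panel) of T cell, endothelial, macrophage and monocyte, B cell and regulatory T cell markers on each of the 12 arrays, by group (horizontal axis); symbols are arrays 1, 2 and 3 and lines are group means. B cell, macrophage and endothelial means read lower on every activated array than on every baseline array, the endothelial ones at 3.67 to 3.81 against 3.99 to 4.14, and activated arrays 3 had the highest B cell mean of their groups.

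Eng read 4.71, 4.32 and 4.24 on the 3 Cre- baseline arrays and 6.86, 6.85 and 6.40 on the Cre+ baseline arrays, in log2 expression. The lowest Cre+ array lay well above the highest Cre- array. After activation it read 4.08, 4.21 and 5.03 in Cre- and 6.13, 6.13 and 6.41 in Cre+ cells, and again the groups did not overlap. In folds, Eng was 4.85-fold higher in Cre+ cells at baseline (log2 difference 2.28, SE 0.23) and 3.44-fold higher after activation (1.78, SE 0.23). In order of level the groups were Cre+ baseline, Cre+ activated, Cre- activated and Cre- baseline. Only the step between the genotypes separated neighbours without overlap, while the 2 Cre+ groups overlapped and so did the 2 Cre- groups. The Cre- means of 4.42 and 4.44 were close to the array medians of 4.04 to 4.17, and whether they lay above background was not tested. A fold against them compares readings, not amounts of transcript.

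Eng was past the threshold in both genotype comparisons. At baseline it was in all 21 alternative settings, with differences of 2.19 to 2.43. After activation it was in 20 of 21, with differences of 1.60 to 2.08, and it missed the threshold when only the 6 activated arrays were fitted. Without both activated arrays 3 the difference was 1.98. Activated and baseline Cre- cells differed in Eng by 0.02 (SE 0.23; -0.28 without Cre- activated array 3). In Cre+ cells it read 0.48 lower after activation (SE 0.23), a difference past the threshold in 3 of 21 settings. These were array weights (-0.55), the fit lacking Cre- activated array 3 (-0.48) and the fit lacking both activated arrays 3 (-0.57).

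Endoglin is best known from endothelial cells, and it is also found on activated macrophages, stromal cells and early erythroid cells. Of 11 endothelial markers measured, none passed between genotypes at baseline or after activation (limma adjusted p under 0.05 over all genes). At an unadjusted p under 0.05 there were 0 and 1. Of all genes, 0.552% and 0.729% passed in these comparisons, and 6.93% and 7.51% had an unadjusted p under 0.05. At such shares a count of 0 in a list this short says little. Several of the markers, such as Tek, Emcn and Plvap, also read below the array medians of 4.04 to 4.17. The mean of the 11 endothelial markers was 3.99 to 4.14 in Cre- and 4.03 to 4.10 in Cre+ cells at baseline. Macrophage and monocyte markers, 8 measured, gave 0 calls in both states by the same test, and none at an unadjusted p under 0.05, with baseline means of 4.89 to 5.05 in Cre- and 4.70 to 5.13 in Cre+ cells. The same held for 7 fibroblast and stromal markers (3.02 to 3.27 and 3.09 to 3.11) and 5 erythroid markers (3.41 to 3.53 and 3.45 to 3.54). Regulatory T cell markers read higher on the Cre+ baseline arrays. Their mean was 7.13 to 7.35 in Cre- and 7.62 to 7.64 in Cre+ cells, and 1 of 7, Nrp1, passed (0.66, SE 0.12, limma adjusted p = 0.0394). After activation their mean was 7.45 to 7.94 and 7.63 to 8.44, and Nrp1 was again the 1 of 7 to pass (0.92, limma adjusted p = 0.00442). All 5 B cell markers read higher in activated Cre+ than Cre- cells, by 0.63 to 1.18, and none passed in the limma fit (1 at an unadjusted p under 0.05). The part of these markers in the Eng difference was not tested.

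**Figure D2:**
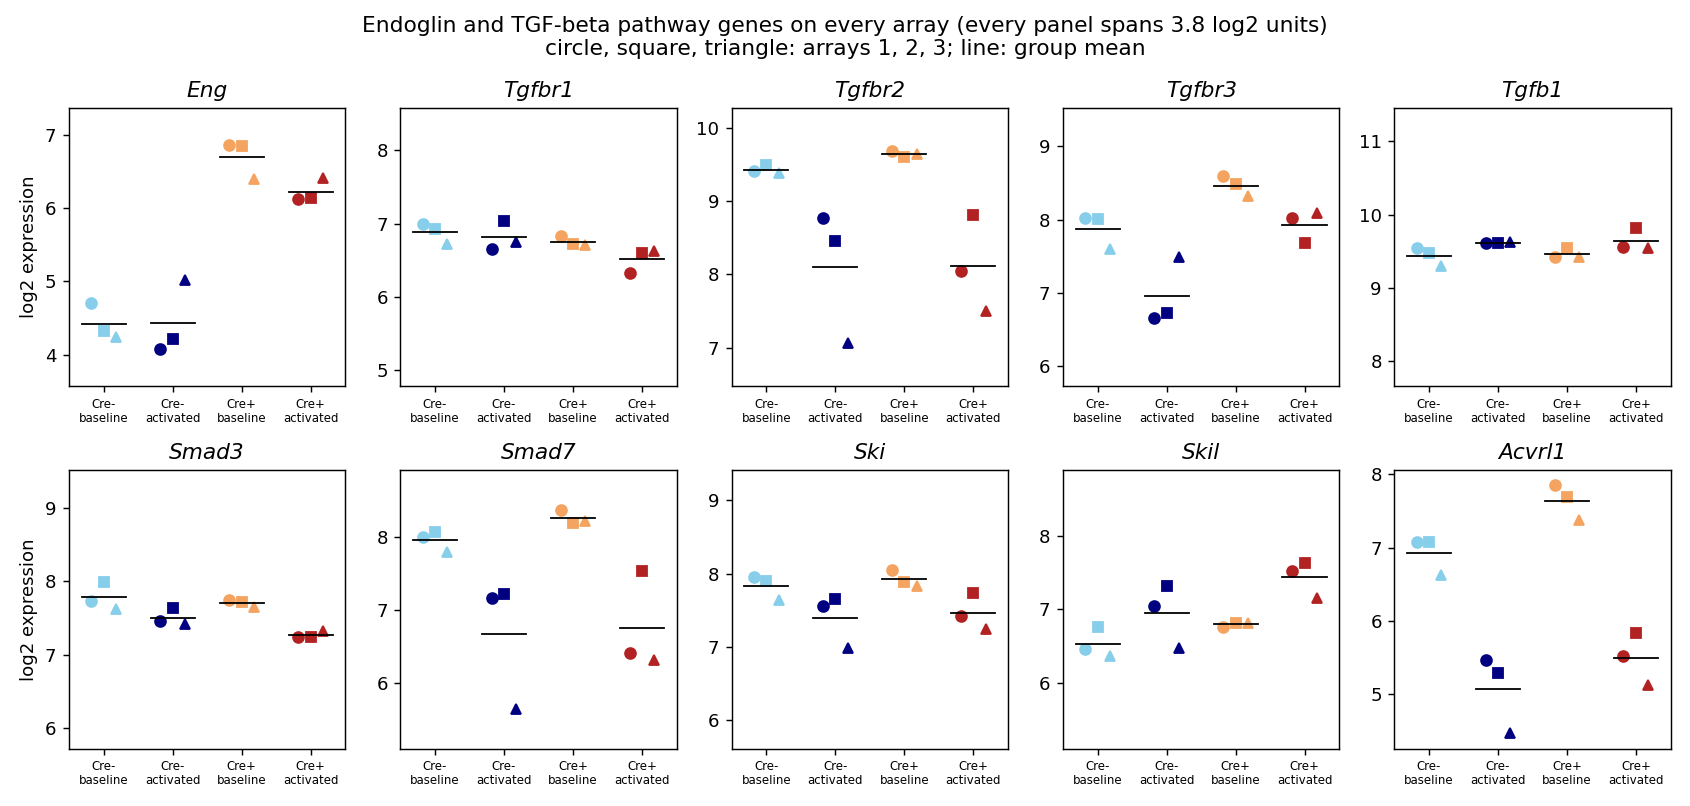
Log2 expression (vertical axis, 3.8 units in every panel) of the 10 genes on each array, by group (horizontal axis); symbols are arrays 1, 2 and 3 and lines are group means. Eng separates by genotype, with all Cre+ arrays at 6.13 or above and all Cre- arrays at 5.03 or below, whereas Tgfbr2, Smad7 and Acvrl1 separate by activation.

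The genes whose values followed Eng most closely over the 12 arrays were Arhgef5 (Pearson r = 0.961), Mmp14 (0.949), Slc43a1 (0.949), Ifih1 (0.946) and Vcl (0.943), the highest of 2661 genes whose group means spanned at least 1 log2 unit. Mmp14 encodes a membrane-bound matrix metalloproteinase and Vcl the adhesion protein vinculin. All 12 points share the genotype split. Once each array was taken as a deviation from its group mean, the correlations were 0.66 for Arhgef5, 0.76 for Slc43a1, 0.69 for Ifih1 and 0.71 for Vcl but -0.13 for Mmp14. These deviations include both activated arrays 3, and the widest for Eng was that of Cre- activated array 3 (5.03 against 4.08 and 4.21). The 5 genes were also chosen by their correlation over these same arrays. Mmp14 read 4.75 and 4.52 in Cre- and 6.62 and 6.47 in Cre+ cells at baseline and after activation, means that resembled those of Eng in size and order of genotypes.

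At baseline Eng was the 1 member of 10 past the threshold between genotypes, in a comparison where 0.492% of all genes were past it and higher in Cre+ cells and 0.0604% lower. At an unadjusted p under 0.05 there were 3 members, beside 6.93% of all genes. The other receptor genes read as follows. Acvrl1 read 7.07, 7.08 and 6.62 in Cre- and 7.85, 7.69 and 7.37 in Cre+ cells at baseline. The groups did not overlap, at a difference of 0.71 (SE 0.26). Tgfbr3 read 8.03, 8.02 and 7.60 in Cre- and 8.59, 8.48 and 8.32 in Cre+ cells, also without overlap (0.58, SE 0.21). The signalling receptors differed less, with Tgfbr2 at 9.43 ± 0.06 (SD, n = 3) and 9.64 ± 0.04 and Tgfbr1 at 6.88 ± 0.14 and 6.75 ± 0.07. Of the 10 members, 6 read higher in Cre+ cells without overlap of the groups (Eng, Tgfbr2, Tgfbr3, Smad7, Skil and Acvrl1), and none read lower without overlap, beside 8.82% and 7.42% of all genes; the choice of the members used this comparison. The median difference of the members was 0.24 against 0.00 for all genes.

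The ligand gene Tgfb1 differed by 0.02 between genotypes at baseline (SE 0.11) and by 0.02 after activation, less than the spread of its arrays. Smad3, the signal-transducing Smad, differed by -0.08 (SE 0.11) at baseline. The inhibitor gene Smad7 read 8.00, 8.07 and 7.80 in Cre- and 8.37, 8.19 and 8.21 in Cre+ cells, a difference of 0.30 against an SE of 0.39 that includes the wide activated arrays. The corepressor genes Ski and Skil differed by 0.09 (SE 0.18) and 0.27 (SE 0.20).

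After activation, 1 member of 10 was past the threshold between genotypes, Eng, where 0.63% of all genes were past it and higher. There were 4 members at an unadjusted p under 0.05, beside 7.51% of all genes. The groups did not overlap for 2 members that read higher in Cre+ cells and 2 that read lower, beside 5.25% and 5.51% of all genes. Tgfbr3 came nearest among the others. It read 6.67, 6.73 and 7.49 in Cre- and 8.02, 7.68 and 8.09 in Cre+ cells, so the groups did not overlap, and its difference was 0.97 (SE 0.21, 1.96-fold). It was past the threshold with array weights (1.25), in the fit lacking Cre- activated array 3 (1.23) and in the fit lacking both activated arrays 3 (1.15). Smad3 read 7.46, 7.63 and 7.42 in Cre- and 7.24, 7.24 and 7.32 in Cre+ cells, with no overlap and a difference of -0.24 (SE 0.11). Tgfbr1 was likewise lower on all Cre+ arrays, at 6.33 to 6.63 against 6.66 to 7.03 (-0.29, SE 0.13). Both were past the threshold only with array weights (-0.33 for Smad3 and -0.55 for Tgfbr1). Tgfbr2 (0.03, SE 0.39), Smad7 (0.08, SE 0.39) and Ski (0.07, SE 0.18) turned their sign without both activated arrays 3, at -0.18, -0.22 and -0.03. Their activated arrays spread more widely than any such difference. Acvrl1 (0.42, SE 0.26) and Skil (0.49, SE 0.20) overlapped between genotypes, and without Cre- activated array 3 their differences were 0.11 and 0.26.

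**Figure D3:**
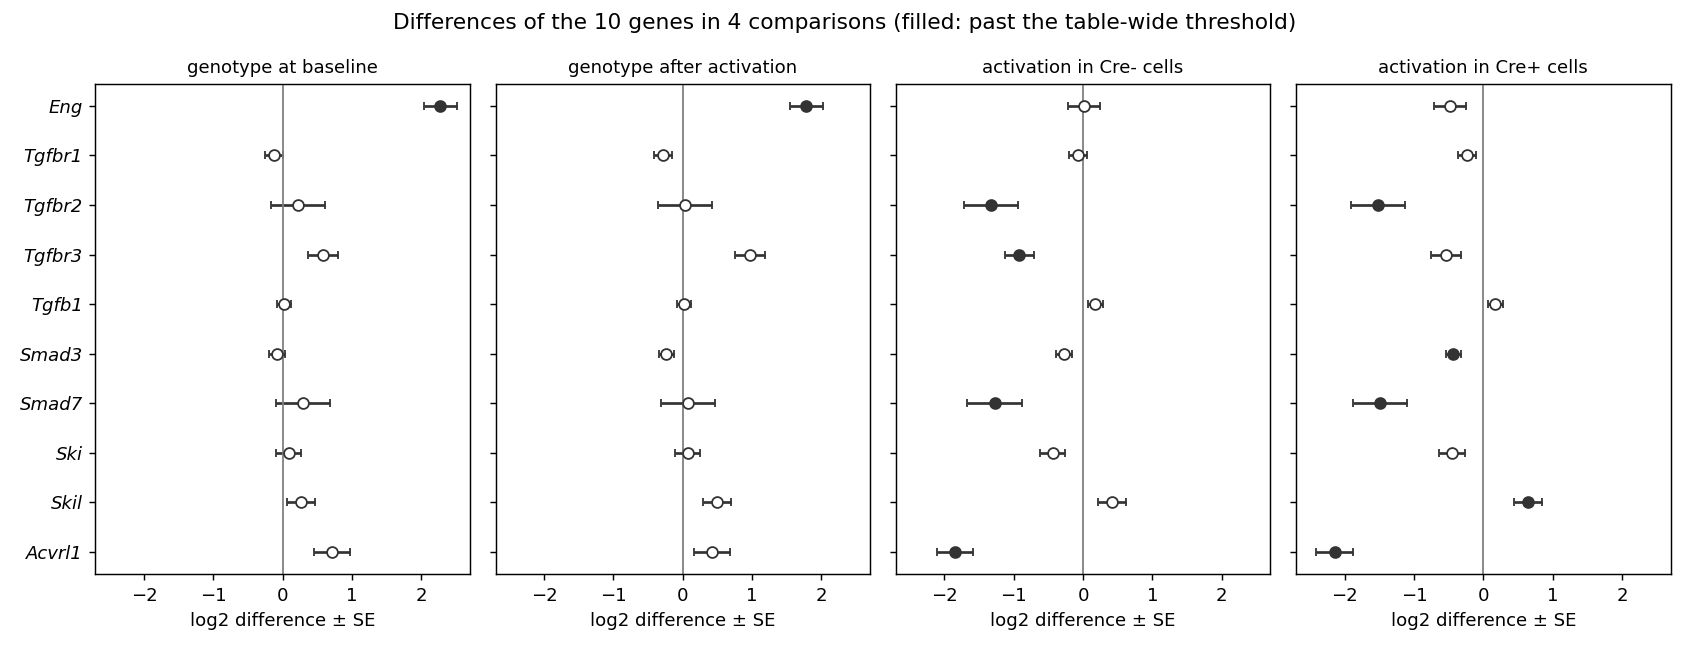
Log2 differences of the 10 genes (horizontal axis, points with the SE of the limma fit of all arrays) in 4 comparisons, with genotype as Cre+ minus Cre- and activation as activated minus baseline; filled points were past the table-wide threshold. Eng stands apart in both genotype panels at 2.28 and 1.78, and Acvrl1 has the widest fall in both activation panels at -1.85 and -2.15.

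The rest of the pathway was taken from a list of 72 genes by role, of which 69 were measured; this list too was written with earlier results of these data known. At an unadjusted p under 0.05 there were 10 of 69 between genotypes at baseline, against 6.93% of all genes. In the limma fit 1 of 69 passed (1.45%, against 0.552% of all genes in either direction). It was Acvr1, which encodes the type I receptor ALK2 of bone morphogenetic proteins. Acvr1 read 4.02, 3.64 and 3.59 in Cre- and 4.98, 4.65 and 4.60 in Cre+ cells (log2 difference 1.00, SE 0.15, limma adjusted p = 0.0104). The Cre- readings lay below the array medians, and whether they were above background was not tested. Its call was lost without Cre- baseline array 2 (0.94), Cre- baseline array 3 (0.91) or Cre+ baseline array 1 (0.88). After activation the difference was 0.54 (SE 0.15, limma adjusted p = 0.175).

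Acvr1 was 1 of 10 receptor and co-receptor genes measured, and the other 9 did not pass. Bmpr2, the type II receptor for bone morphogenetic proteins, had baseline levels of 7.29 ± 0.21 (SD, n = 3) for Cre- and 8.00 ± 0.05 for Cre+ cells (0.71, SE 0.22, limma adjusted p = 0.342). It read 7.30 ± 0.38 and 8.09 ± 0.41 after activation (0.79, limma adjusted p = 0.198). Acvr2a, an activin type II receptor gene, differed by 0.54 at baseline (SE 0.19, limma adjusted p = 0.487). Among 15 ligand genes none passed; Bmp7 read 6.11 ± 0.13 and 6.79 ± 0.05 (0.69, SE 0.22, limma adjusted p = 0.357). Among 6 Smads none passed, and Smad1, which carries signals of bone morphogenetic proteins, read 6.22 ± 0.14 and 6.77 ± 0.09 (0.54, SE 0.14, limma adjusted p = 0.208). At baseline 4 of 69 passed in the fit lacking both activated arrays 3, and these were Acvr1, Bmp7, Bmpr2 and Smad1. Their baseline differences were unchanged in that fit, where 266 of all genes passed, against 128 with all arrays. With the 6 baseline arrays fitted by themselves 3 of 69 passed, without Smad1, beside 251 of all genes. In the fit lacking Cre- activated array 3 there were 2 of 69, with Bmp7 added, beside 199 of all genes.

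Genes that TGF-beta is known to induce gave 0 calls of 10 between genotypes at baseline and 0 of 10 after activation in the limma fit, each with 1 at an unadjusted p under 0.05. Itgae, which encodes the integrin CD103, had baseline levels of 4.65 ± 0.10 for Cre- and 5.22 ± 0.13 for Cre+ cells (0.57, SE 0.17, limma adjusted p = 0.309). Junb, an AP-1 subunit gene, differed by 0.52 after activation (SE 0.13, limma adjusted p = 0.135). In that comparison 0 of the 69 genes passed in the limma fit, against 0.729% of all genes. At an unadjusted p under 0.05 there were 9 of the 69, against 7.51% of all genes. In the fit lacking Cre- activated array 3, Bmp7 passed (0.52), and in that lacking Cre+ activated array 3, Junb did (0.66). Furin, the protease that cleaves the TGF-beta precursor, differed by 0.37 at baseline (limma adjusted p = 0.636) and 0.57 after activation (limma adjusted p = 0.185). The median difference of the 69 genes was 0.05 at baseline and -0.02 after activation. With array weights 10 of 69 passed after activation, 7 higher and 3 lower. The count over all genes rose with these weights too, to 2416 against 169 in the reported fit.

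**Figure D4:**
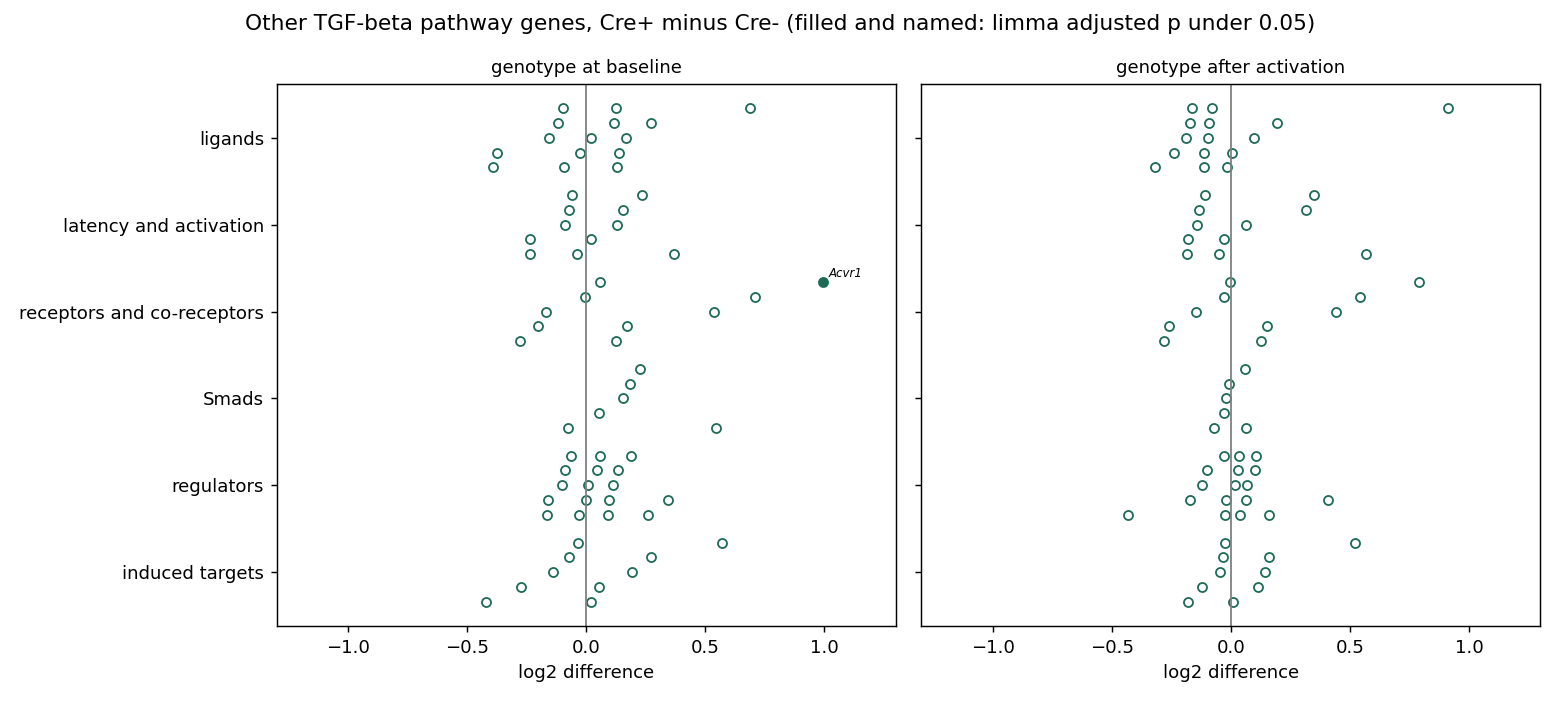
Log2 differences between genotypes, Cre+ minus Cre- (horizontal axis), of the 69 other pathway genes by role (vertical axis) at baseline and after activation; filled and named points passed the limma test. Acvr1 at 1.00 is the single gene to pass at baseline, and none passed after activation.

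With activation, 4 of 10 members were past the threshold in Cre- cells, all lower, beside 9.1% of all genes past it and lower and 9.39% higher. For Cre+ cells there were 5 of 10, of which 4 were lower and 1 higher, beside 10.6% of all genes lower and 10.1% higher. At an unadjusted p under 0.05 there were 6 and 7 members, beside 29.7% and 31.2% of all genes. Baseline and activated groups did not overlap for 5 of 10 members in Cre- cells (35.1% of all genes) and for 8 of 10 in Cre+ cells (36.7%), of which 7 were lower (19.3%). These counts are read as a description, since the members were chosen with the results known. The Cre- count was 2 without any 1 of the Cre- baseline arrays or without Cre+ baseline array 2. The Cre+ count was 1 without Cre+ baseline array 1 or Cre+ activated array 1, 3 without Cre+ baseline array 2 or 3 or Cre+ activated array 3, and 8 in the fit lacking Cre- activated array 3. The counts over all genes moved too. In the fits named for Cre- cells they were 2877 to 3818, against 4287 with all arrays. For Cre+ cells they were 3148 to 3453 in the fits with 1 or 3 members and 5922 in the fit with 8, against 4795 with all arrays.

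Of the members Acvrl1 changed most. From the baseline values given above it fell to 5.47, 5.29 and 4.47 in Cre- and to 5.52, 5.83 and 5.13 in Cre+ cells. All activated arrays lay below all baseline arrays in both genotypes. The falls were 3.60-fold in Cre- cells (log2 difference -1.85, SE 0.26) and 4.43-fold in Cre+ cells (-2.15, SE 0.26), past the threshold in all 21 settings, and -1.54 and -1.96 without both activated arrays 3. The baseline Cre+ level stood above the baseline Cre- level without overlap, and the 2 activated groups overlapped.

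Tgfbr2, the receptor that binds TGF-beta first, read 9.41, 9.49 and 9.38 in Cre- and 9.68, 9.60 and 9.64 in Cre+ cells at baseline. After activation it read 8.76, 8.45 and 7.07 in Cre- and 8.04, 8.82 and 7.50 in Cre+ cells. Every activated array was below every baseline array, but the activated arrays of a genotype spread over more than 1 log2 unit. The differences were -1.33 (SE 0.39) and -1.52 (SE 0.39), and -0.82 and -1.21 without both activated arrays 3. In Cre- cells Tgfbr2 missed the threshold in 6 of 21 settings: with only the arrays compared, and in the fits lacking any 1 Cre- baseline array, Cre- activated array 3 (-0.82) or Cre+ baseline array 2. The Cre+ difference did so in 3, in the fits lacking Cre+ baseline array 1 (-1.50) or Cre+ activated array 1 (-1.48) or 3 (-1.21). Tgfbr1, its signalling partner, read 6.81 ± 0.20 (SD, n = 3) and 6.52 ± 0.17 after activation, differences of -0.07 and -0.23 (SE 0.13) that were not past the threshold. The Cre+ difference was past the threshold with array weights alone (-0.37).

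The inhibitory Smad7 moved with Tgfbr2. After activation it read 7.17, 7.22 and 5.66 in Cre- and 6.42, 7.54 and 6.33 in Cre+ cells, all below the baseline arrays of both genotypes. The differences were -1.28 and -1.49 (SE 0.39 each), and -0.76 and -1.28 without both activated arrays 3. In Cre- cells Smad7 missed the threshold in 10 of 21 settings: with only the arrays compared, and in the fits lacking any 1 of the 6 baseline arrays, Cre+ activated array 1, Cre- activated array 3 alone or both activated arrays 3 (-0.76 for each of the last pair). The Cre+ difference missed it in 4, without Cre+ baseline array 1 (-1.44) or 3 (-1.52) or Cre+ activated array 1 (-1.32) or 3 (-1.28).

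The co-receptor gene Tgfbr3 fell 1.89-fold in Cre- cells, from a mean of 7.88 to 6.96 (-0.92, SE 0.21), with no overlap and past the threshold in all 21 settings. In Cre+ cells it read 8.47 ± 0.14 at baseline and 7.93 ± 0.22 after activation, a difference of -0.53 that was past the threshold in 5 of 21 settings: with array weights, quantile normalization or only the arrays compared, and in the fits lacking Cre- activated array 3 alone or both activated arrays 3. In order of level the groups were Cre+ baseline, Cre+ activated, Cre- baseline and Cre- activated, and the middle pair overlapped.

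Among the intracellular members the shifts were smaller. Smad3 read 7.74, 7.72 and 7.64 in Cre+ cells at baseline and 7.24, 7.24 and 7.32 after activation. This fall of 0.43 on the log2 scale (SE 0.11) was past the threshold but missed it without Cre+ baseline array 1 (-0.41) or 2 (-0.42) or Cre+ activated array 1 (-0.42). In Cre- cells the Smad3 groups overlapped, at 7.62 to 8.00 and 7.42 to 7.63, with a difference of -0.27 that was past the threshold after quantile normalization alone (-0.34). Skil was the 1 member past the threshold and higher, in Cre+ cells. Its Cre+ values went from 6.77, 6.81 and 6.81 to 7.52, 7.63 and 7.16, a difference of 0.64 (SE 0.20), which missed the threshold in 6 settings: the fits lacking any 1 Cre+ baseline array (0.63 to 0.65), Cre- baseline array 1, or Cre+ activated array 1 (0.60) or 2 (0.55). The Cre- difference was 0.42, and it was past the threshold with array weights (0.68) and at 0.65 in the fits lacking Cre- activated array 3 alone or both activated arrays 3. Ski, the other corepressor gene, differed the opposite way, by -0.44 in Cre- and -0.45 in Cre+ cells (SE 0.18 each), not past the threshold. The Cre- difference was -0.23 without Cre- activated array 3. With the replicate number as a block Ski was past the threshold in both genotypes. Cre+ cells showed the same with array weights (-0.49) and in the fits lacking Cre- activated array 3 (-0.45) or Cre+ activated array 2 (-0.59). Tgfb1 read 9.44 ± 0.12 and 9.62 ± 0.01 in Cre- and 9.46 ± 0.07 and 9.64 ± 0.15 in Cre+ cells at baseline and after activation, differences of 0.18 and 0.17 (SE 0.11) that were past the threshold in no setting. The Cre- arrays of Tgfb1 did not overlap between the states, with all activated arrays higher, and the Cre+ arrays did.

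On activated array 3 the members fell into opposed blocks. In both genotypes it was the lowest of its group for Tgfbr2, Smad7, Ski, Skil and Acvrl1 and the highest for the co-receptor genes Eng and Tgfbr3. As deviations from group means over the 12 arrays, Tgfbr2 correlated with Smad7 at 0.96 and with Acvrl1 at 0.88, Eng with Tgfbr3 at 0.88, and Tgfbr2 with Tgfbr3 at -0.83. These correlations describe 12 arrays that include both activated arrays 3. T cell markers were lower and B cell markers higher on the same arrays, and their part in these levels was not tested.

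Over the other pathway genes, activation changed 18 of 69 in Cre- cells (7 higher, 11 lower; 26.1%, against 18.5% of all genes) and 22 of 69 in Cre+ cells (10 higher, 12 lower; 31.9%, against 20.7%). After centring each array on its median the Cre- split was 9 higher and 8 lower. Without Cre+ baseline array 1 the Cre+ count was 14. Of these genes 16 passed in both genotypes, all in the same direction. The calls of 11 of the 18 and 13 of the 22 held in every setting that tested the gene. The filter on dim genes kept only 35 of the 69, so calls of dimmer genes were not tested by it. Of the calls that did not hold, those of Acvr1b and Rnf111 in Cre- cells were lost without any 1 of the 6 baseline arrays, Cre- activated array 3 (-0.50 and -0.35) or Cre+ activated array 1. Nrros and Itgae in Cre- cells lost theirs without any 1 Cre- baseline array or Cre- activated array 3 (-0.37 and -0.53), Nrros also without Cre- activated array 2 and Itgae without array 1. Gdf11 did so without Cre- baseline array 1 or 2, and Tgif2 without Cre- baseline array 1 or 3 or Cre- activated array 3. Among Cre+ calls, Cre+ baseline array 1 was needed, in that the call was lost without it, for Gdf11, Bmp7, Nrros, Acvr1b, Smad5, Rnf111, Map3k7 and Junb. Cre+ activated array 1 was needed for Gdf11, Bmp7, Smad5, Rnf111, Map3k7, Junb and Tsc22d1, and Cre+ activated array 3 for Bmp7, Nrros, Acvr1b, Smad5, Rnf111, Map3k7 and Tsc22d1. Cre+ baseline array 2 was needed for Gdf11, Bmp7, Nrros, Smad5, Rnf111, Map3k7 and Tsc22d1, and Cre+ baseline array 3 for Bmp7, Nrros, Rnf111, Map3k7 and Tsc22d1. Cre+ activated array 2 was needed for Bmp7 and Nrros. Without Cre- baseline array 1 the Cre+ calls of Bmp7, Nrros and Rnf111 were lost. Those of Nrros and Rnf111 were lost without Cre- baseline array 2 or 3 or Cre- activated array 2. Leaving out an array of the other genotype kept every difference and changed only its SE and p-value. Over all genes, Cre+ calls were 4795 with all arrays and 3433 to 3453 without 1 Cre+ baseline array. They were 3148, 5472 and 3175 without Cre+ activated array 1, 2 or 3. The Cre+ values without 1 array lay within 1.5 times those with all arrays.

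Regulators gave 8 of the 18 and 8 of the 22 calls. Pmepa1, a TGF-beta-induced gene whose product limits Smad signalling, rose from 5.89, 6.10 and 5.74 in Cre- cells to 7.69, 7.69 and 7.43 (1.69, SE 0.12, limma adjusted p = 3.22e-06). The Cre+ values rose from 6.24, 6.32 and 6.21 to 7.94, 8.06 and 8.03 (1.76, limma adjusted p = 2.09e-06). Tgif1, a homeodomain corepressor of Smads, rose by 1.23 (Cre-) and 1.13 (Cre+; SE 0.27 each, limma adjusted p = 0.00771 and 0.0111). Strap, which encodes a protein that binds TGF-beta receptors and Smad7, rose by 0.95 and 1.09, and Fkbp1a, whose product keeps the type I receptor inactive, by 0.65 and 0.64. The 3 regulators that fell encode ubiquitin ligases. Nedd4l fell by 0.99 (Cre-) and 1.25 (Cre+; SE 0.12 each, limma adjusted p = 0.00024 and 3.6e-05) and Smurf2, which partners Smad7, by 0.74 and 0.91. Rnf111 (Arkadia), which targets Smad7 and the corepressors for degradation, fell by 0.55 and 0.54, calls lost in 11 and 10 settings. Of 17 regulators 8 passed in each genotype, 5 higher and 3 lower in both, with Tgif2 (0.55, lost in 5 settings) in Cre- and Map3k7 (0.36, lost in 6) in Cre+ cells as the differing genes.

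Among ligands and the genes that release them, Furin rose from 7.24 ± 0.26 to 8.56 ± 0.22 in Cre- and from 7.61 ± 0.07 to 9.12 ± 0.19 in Cre+ cells (SD, n = 3; 1.31 and 1.51, limma adjusted p = 0.000159 and 5.12e-05). Itgav, the integrin subunit that activates latent TGF-beta, rose by 0.47 in Cre+ cells (limma adjusted p = 0.00767) and read 0.28 higher in Cre- cells (limma adjusted p = 0.0914), where it passed in 3 settings: array weights, median centring and a mean of at least 5. Nrros, which tethers latent TGF-beta on myeloid cells, fell by 0.51 and 0.45, calls lost in 8 and 14 settings. Inhba, the activin A subunit gene, rose in Cre+ cells from 2.22, 2.56 and 2.56 to 3.98, 3.30 and 4.75 (1.57, SE 0.34, limma adjusted p = 0.00652) and read 0.82 higher in Cre- cells (limma adjusted p = 0.121), where it passed without Cre- activated array 2 (1.11). All its baseline readings lay below the array medians. Gdf11 fell by 0.84 and 0.79, Tgfb3 by 0.81 in Cre- cells, and Bmp7 by 0.72 in Cre+ cells, where its call was lost in 8 settings. In Cre- cells Bmp7 differed by -0.22, and it passed with array weights (-0.52) and in the fits lacking Cre- activated array 3 alone or both activated arrays 3 (-0.55). Acvr1b, the activin type I receptor gene, fell by 0.91 and 1.12, by 0.50 in Cre- cells without both activated arrays 3, and its calls were lost in 10 and 2 settings. Of 6 Smads, Smad5 alone passed, in Cre+ cells (-0.62, limma adjusted p = 0.0211, lost in 4 settings). The Cre- difference of Smad5 was -0.52 (limma adjusted p = 0.0504) and passed in 7 of 21 settings, and Smad2 passed in Cre- cells after median centring alone (0.35).

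The induced targets did not move one way. Of 10 measured, 1 rose and 4 fell in Cre- cells, and 2 rose and 4 fell in Cre+ cells. Of all genes, 9.39% passed and were higher and 9.1% lower in Cre- cells, and 10.1% and 10.6% in Cre+ cells. Id1, a target of bone morphogenetic proteins and TGF-beta, rose from 3.77 ± 0.26 to 4.93 ± 0.34 in Cre- and from 3.63 ± 0.15 to 5.09 ± 0.26 in Cre+ cells (SD, n = 3; 1.16 and 1.46, limma adjusted p = 0.00171 and 0.00037), while its relative Id3 fell by 0.87 and 1.18. Itgae fell by 0.59 in Cre- cells (limma adjusted p = 0.0311, lost in 6 settings) and by 1.20 in Cre+ cells (limma adjusted p = 0.000518), and Tsc22d1 by 0.66 and 0.54 (lost in 1 and 4 settings). Junb rose by 0.51 in Cre+ cells (limma adjusted p = 0.0154, lost in 2 settings). Tgfbi, which encodes a secreted matrix protein, fell from 6.70, 5.96 and 6.38 to 4.04, 4.14 and 4.10 in Cre- cells and from 5.70, 5.66 and 6.41 to 3.88, 4.29 and 4.02 in Cre+ cells (-2.25 and -1.86, limma adjusted p = 4.35e-05 and 0.000146).

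Markers of several cell types, T cells included, fell over the same interval, while regulatory T cell markers went both ways. Of 7 regulatory T cell markers, 3 rose and 1 fell in Cre- cells, and 3 rose and 2 fell in Cre+ cells. Their median differences were 0.93 and 0.55. Of 7 T cell markers 1 fell in Cre- and 4 in Cre+ cells, with median differences of -0.42 and -0.50, and of 7 fibroblast and stromal markers none passed in either genotype (limma; 0 at an unadjusted p under 0.05). Of 8 macrophage and monocyte markers 7 fell in Cre- and 6 in Cre+ cells, and their mean went from 4.89 to 5.05 down to 3.63 to 3.87 in Cre- and from 4.70 to 5.13 down to 3.72 to 3.95 in Cre+ cells. Csf1r, the macrophage growth factor receptor, fell by 2.24 and 1.92, and Cd79a, a subunit of the B cell receptor, by 4.01 and 3.21. Of 5 B cell markers, 5 fell in Cre- and 3 in Cre+ cells. Beside these counts, 9.1% of all genes passed and were lower in Cre- and 10.6% in Cre+ cells. The shares that passed and were higher were 9.39% and 10.1%. Of 11 endothelial markers 1 passed, Cdh5, which fell by 1.35 and 0.99. Pecam1, which T cells and other leukocytes also carry, differed by -1.03 in Cre- (limma adjusted p = 0.213) and -1.49 in Cre+ cells (limma adjusted p = 0.0633), with every activated array below every baseline array. The part of these markers' cells in the falls of Tgfbi, Acvrl1, Nrros and the other genes was not tested.

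**Figure D5:**
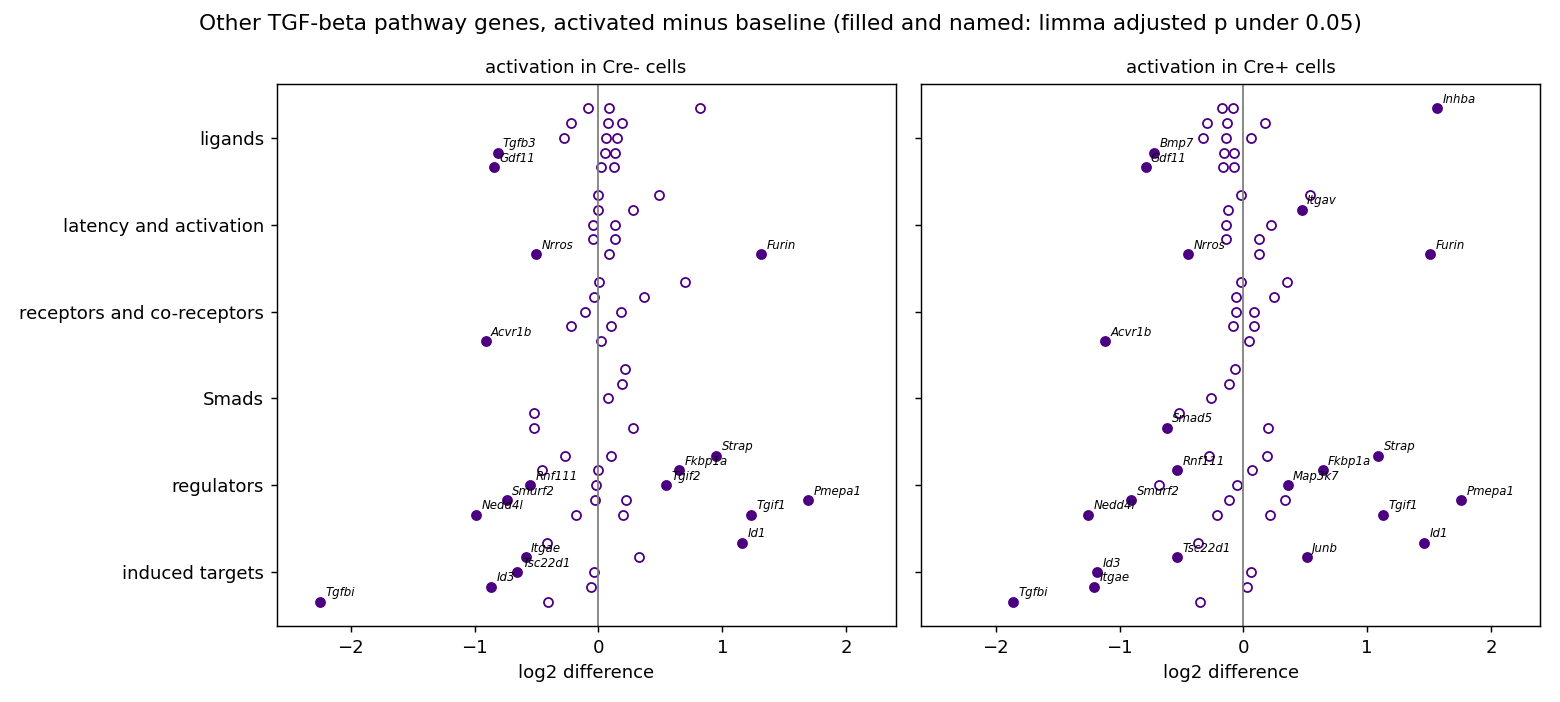
Log2 differences with activation, activated minus baseline (horizontal axis), of the 69 other pathway genes by role (vertical axis) in Cre- and Cre+ cells; filled and named points passed the limma test. Tgfbi lies lowest at -2.25 and -1.86 and Pmepa1 highest at 1.69 and 1.76, and the 16 genes that passed in both genotypes lie on the same side in both panels.

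Whether the activation response itself differed between genotypes was asked of the difference of the responses, Cre+ minus Cre-. No member was past the threshold (0 of 10 in the limma fit and 0 of 10 at an unadjusted p under 0.05, beside 0.00863% of all genes past the threshold and 4.7% at the unadjusted p). The widest differences were -0.50 for Eng (SE 0.33), which was -0.20 without Cre- activated array 3, and 0.38 for Tgfbr3 (SE 0.30). Acvrl1 differed by -0.30 (SE 0.37) and Tgfb1 by 0.00 (SE 0.15). The SE was 0.55 for both Tgfbr2 (-0.19) and Smad7 (-0.22). Without Cre- activated array 3 the values were -0.71 for Tgfbr2, -0.73 for Smad7, 0.65 for Tgfbr3, -0.60 for Acvrl1 and -0.01 for Skil (0.23 with all arrays). Without both activated arrays 3 they were -0.40 for Tgfbr2, -0.51 for Smad7, 0.57 for Tgfbr3 and -0.29 for Eng. Of the 69 other genes 0 passed in the limma fit and 4 had an unadjusted p under 0.05. They were Junb (0.55, SE 0.18, limma adjusted p = 0.894), Itgae (-0.61, SE 0.24, limma adjusted p = 0.984), Smad1 (-0.48, SE 0.20) and Acvr1 (-0.45, SE 0.21). The genes that passed in one genotype alone on activation, such as Inhba and Tgfb3, are therefore not shown to respond differently.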

How the data were processed

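RNA from 12 samples was measured on arrays that give a single value for each gene. Per the submitters' processing notes, the authors ran RMA with affy 1.36.1 under R 2.15.1, and the values they deposited are on the log2 scale, from 0.542 to 13.2. Neither the chip definition nor a genome build is given in the sources used here. GEO's platform annotation paired 23185 of 25206 rows with 1 gene each, and these were tested; it lists no gene for the other 2021. No depth applies to arrays, and their number limits the precision.

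The fit was limma 3.58.1 in R 4.3.3, a single model of group means over the 12 arrays without covariates (8 residual and 3.55 prior degrees of freedom), from which every SE comes. Calls need an adjusted p (Benjamini-Hochberg, two-sided, over 23185 genes) under 0.05. There were 5 comparisons and 21 alternative settings, such as array weights, quantile normalization, leaving out arrays and a filter on dim genes. Members, lists and settings were chosen with earlier results of these data known. The text names all members, pathway genes that passed, up to 2 others per role by smallest p, the 5 genes most like Eng among those spanning at least 1 log2 unit, and cell type markers. Some genes of the pathway and marker lists were not analysed here. Of 2 CD8 T cell markers none passed in any comparison (limma; 0 at an unadjusted p under 0.05). The model was tested on simulated data. Promoter sequences are those of RefSeq (GRCm38.p6).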

Additional observations from a re-analysis of the deposited data

How the results depend on the processing

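Arrays with the same replicate number were compared by the correlation of their deviations from group means. Between the activated groups the correlations were -0.05, 0.57 and 0.73 for arrays 1, 2 and 3. Between the baseline groups they were -0.03 to 0.15, and between baseline and activated arrays of a genotype -0.09 to 0.13. Activated arrays 2 and 3 thus varied together across genotypes while arrays 1 did not, and the source of this was not tested. With the replicate number as a block the members past the threshold were 1, 1, 5 and 6 in the 4 comparisons of genotype and activation, and all differences kept their values. Of 1040 recomputed member differences, 1038 stayed within 1 SD of the reported value and none past the threshold turned its sign. That SD was the wider SD of the groups compared, or the widest of all groups for the difference of responses. Leaving out 1 of 3 arrays cannot move a difference so far. Other settings, such as the replicate block, change no difference at all. The count of 1038 therefore does not measure how stable the differences are. Members past the threshold after activation between genotypes were 4 with array weights, 0 with only the arrays compared and 2 without both activated arrays 3. All genes past it in these settings numbered 2416, 9 and 229, against 169 in the reported fit. For activation in Cre- cells 2 members were past it with only the arrays compared, beside 3201 of all genes (4287 in the reported fit). In Cre+ cells 9 members were past it with array weights, beside 8292 of all genes (4795 in the reported fit). Leaving out 1 array gave 1 at baseline throughout, 1 to 2 after activation, 2 to 4 for activation in Cre- cells, 1 to 8 in Cre+ cells and 0 for the difference of responses.

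Other pathway genes that passed at baseline were 3 with array weights and 0 among the 35 with a mean of at least 5. That filter removed Acvr1, so its call was not tested there. With only the arrays compared 3 passed, and 4 did without both activated arrays 3. All genes that passed in these settings numbered 321, 83, 251 and 266, against 128 in the reported fit. Between genotypes after activation 10 passed with array weights, beside 2416 of all genes (169 in the reported fit). For the difference of responses 1 passed with array weights, beside 143 of all genes (2 in the reported fit). Leaving out 1 array gave 0 to 2 at baseline, 0 to 1 after activation, 13 to 19 and 14 to 24 for activation in Cre- and Cre+ cells, and 0 for the difference of responses. A fold against dim readings is limited by background, which was not measured here.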
